A study of Sus scrofa with 12 samples.

Results

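The pyruvate dehydrogenase complex of the mitochondrion turns pyruvate into acetyl-CoA and so commits carbon from glucose to oxidation or to fat synthesis. Its E1 enzyme, built from the alpha subunit PDHA1 and the beta subunit PDHB, is switched off when a PDK kinase phosphorylates PDHA1 and switched on again when a PDP phosphatase removes the phosphate. DLAT is the E2 core that makes acetyl-CoA, and PDHX anchors the E3 enzyme to that core. In liver, PDK2 is a major isoform, and PDK4 is the isoform best known for induction by fasting. Of 10 symbols of these genes looked up in the platform annotation, 9 were found, with 19 of the 47845 probe sets of the array and 9 of its 13755 gene symbols. PDHX was named by no probe set and is not analysed here. The genes were chosen by name, but with the differences of PDK2 and PDK4 between the groups already known, so these differences are given as a description and carry no test.

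Liver was taken at day 140 of life from pigs of Large White × Landrace dams and Hylean Maxgro sires, all fed the same finisher diet ad libitum and sampled after feeding. Residual feed intake (RFI) is the feed an animal eats beyond what its growth and body mass predict, and a low RFI stands for high feed efficiency. By the sample labels, the low RFI and the high RFI class held 6 pigs each (3 males, 3 females), and each pig had 1 Affymetrix snowball array, a pig expression array. The pigs were chosen as divergent siblings of the same sex, but the labels name no litter, and single pigs are called here by P and their number. All values are log2 intensities, on which probe sets of different genes cannot be ranked against each other.

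Array medians lay between 3.48 and 3.53, and arrays correlated across probe sets at 0.976 to 0.985. The mean of 5 hepatocyte markers was 12.90 to 13.08 in low RFI and 12.95 to 13.01 in high RFI pigs. The means of 3 muscle markers (4.36 to 4.82) and 3 adipocyte markers (4.07 to 4.64) lay above the array medians in all pigs. Single markers did not all do so. LEP of the adipocyte markers averaged 2.54 in low RFI and 2.42 in high RFI pigs, and MYH7 of the muscle markers 3.52 and 3.59. Admixture of these tissues was not tested. P317, labelled high RFI, lay at -28.15 on the first principal component, inside the range of the low RFI pigs (-37.54 to -8.73), whereas the other high RFI pigs lay from 7.77 to 40.05. The mean of the 24 GC-rich control probe sets for nonspecific signal (GC count 17 to 24) was 6.55 ± 0.08 (SD, n = 6) in low RFI and 6.69 ± 0.11 (SD, n = 6) in high RFI pigs. The arrays measure whole tissue, so fewer cells of a type and less RNA per cell cannot be told apart.

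PDK2 and PDK4, both of which switch the complex off, lay on opposite sides. PDK2 was lower and PDK4 higher in pigs labelled low RFI. The classes overlapped in PDK2 and in every probe set of the other 7 genes. Of all probe sets of the array, only 0.339% showed no overlap in either direction. Differences between classes are low minus high RFI by the sample labels, and for PDK2, as for SIRT1 and TXNIP named further on, this direction is opposite to that given in the paper. Which of the sources has the classes the right way round was not tested, and with the labels exchanged every class difference given here, that of PDK4 included, would change its sign. PDK2 has a single probe set, SNOWBALL_000160, so no other probe set checks it. Its lowest, median and highest log2 values were 7.40, 7.90 and 8.23 in low RFI and 8.17, 8.55 and 8.73 in high RFI pigs. The classes overlapped only where P308 (8.20) and P310 (8.23), of low RFI, lay above P318 (8.17), of high RFI. The means were 7.89 ± 0.32 (SD, n = 6) and 8.51 ± 0.22 (SD, n = 6), a log2 difference of -0.62 (SE 0.15, limma) or 1.54-fold lower. Without P317 it was -0.60.

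PDK4 was measured by SNOWBALL_001569 at 7.50, 7.77 and 8.77 (lowest, median, highest) in low RFI and at 6.63, 6.79 and 7.15 in high RFI pigs. Every low RFI pig was above every high RFI pig, a separation toward low RFI that 0.159% of all probe sets showed. The means were 7.86 ± 0.47 (SD, n = 6) and 6.84 ± 0.20 (SD, n = 6), a log2 difference of 1.02 (SE 0.19, limma) or 2.03-fold higher. P323, a low RFI female, stood apart at 8.77, and without it the difference was 0.84, while without P317 it was 1.05. The other probe set of PDK4, SNOWBALL_042510_s, was dim at 1.48 to 2.22 in low RFI and 1.46 to 2.09 in high RFI pigs, at percentile 20.7 of the probe set means of the array, and differed by 0.13 (SE 0.15).

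**Figure D1:**
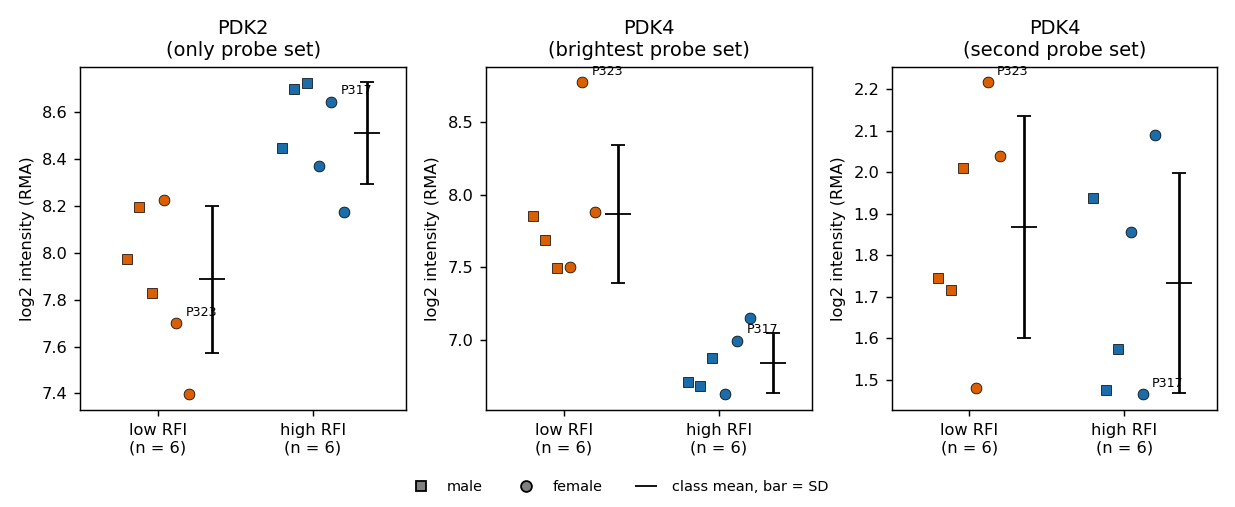
Log2 intensity (RMA) of PDK2 and of both probe sets of PDK4 in each pig, with the class mean and SD (n = 6 per class) beside the points. Through SNOWBALL_001569, all low RFI pigs lie at 7.50 or above and all high RFI pigs at 7.15 or below, while in PDK2 the classes touch between 8.17 and 8.23.

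The study's methods call probe sets at a q-value under 0.30 in limma after a filter on SD, and the calls of members are given as a description only, because the genes were chosen with these differences known. The filter leaves out the probe sets with the lowest 10% of SD over all pigs and the highest 10% of SD within either class. With all 47845 probe sets, 1 member probe set was called, that of PDK4, where 0.0314% of all probe sets were called (0.0272% as higher and 0.00418% as lower in low RFI). With the filter, 13 of the 19 member probe sets were kept, and 1 was called, that of PDK2, where 2.66% of kept probe sets were called (1.02% as lower). PDK4 was not tested there, because its SD in low RFI pigs (0.47) exceeded the limit of 0.43. Without P323 this SD was 0.18. When 1 pig was left out at a time, PDK4 was called in 3 and PDK2 in 1 of 12 fits without the filter. With the filter, PDK2 was called in 12 of 12 such fits. PDK4 was called there in 1 of 12, that without P323, the only fit of these in which it was tested. With all pigs, 0.0314% of probe sets were called without the filter and 2.66% with it. Counts with the filter therefore cannot be set against counts without it. With the mean of the GC-rich background probe sets as a covariate, the log2 differences were -0.80 for PDK2 and 0.87 for PDK4.

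Within single pigs, both kinases were combined as log2 PDK2 minus log2 PDK4, which was -1.07, 0.23 and 0.72 (lowest, median, highest) in low RFI and 1.02, 1.74 and 2.01 in high RFI pigs, with no overlap. Its mean was 0.02 ± 0.68 (SD, n = 6) in low RFI and 1.67 ± 0.34 (SD, n = 6) in high RFI pigs, a log2 difference of -1.65 (SE 0.31), or 3.13-fold in the ratio. Since it is taken within an array, no scaling of whole arrays changes it. It was -1.55 in males and -1.75 in females, and -1.65 without P317. P317, which the first principal component placed among the low RFI pigs, had PDK2 at 8.65 and PDK4 at 6.998, both within the range of the other high RFI pigs.

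**Figure D2:**
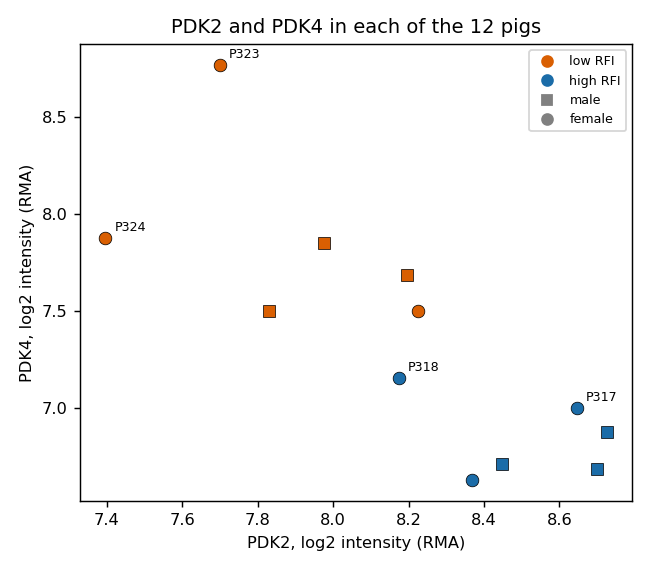
Log2 intensity of PDK4 (SNOWBALL_001569) against that of PDK2 (SNOWBALL_000160), 1 point per pig, coloured by RFI class and shaped by sex. The low RFI pigs fill the upper left, with P323 highest at 8.77 in PDK4 and P324 lowest at 7.40 in PDK2, and P317 lies with the high RFI pigs.

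Among pigs of the same class, the coefficients of PDK2 with PDK4 were negative, and their permutation p depended on the probe sets of PDK4 used. With class means removed, Pearson's r was -0.41 (permutation p = 0.292, two-sided, n = 12) and Spearman's rho was -0.43 (permutation p = 0.199), and r was -0.45 within low RFI and -0.30 within high RFI pigs. Without P303 and P324, the pigs farthest from the median of PDK2, r was -0.56 (permutation p = 0.106). With the mean of both probe sets of PDK4 in place of the brighter, the dim SNOWBALL_042510_s included, r was -0.68 (permutation p = 0.0287, two-sided, not adjusted). That alternative was not among the 7 relations tested. The correlation with the brighter probe set was 1 of them, and its adjusted p was 0.292 by Benjamini-Hochberg. In the others, PDK2 and PDK4 were each set against PCK1, which starts gluconeogenesis, CPT1A, which admits fatty acids into mitochondria, and PPARGC1A, a coactivator of fasting genes. PDK4 had r = 0.65 with PPARGC1A (permutation p = 0.0207, adjusted p = 0.145, rho = 0.43 with permutation p = 0.169) and r = 0.65 with CPT1A (permutation p = 0.0585, adjusted p = 0.197, rho = 0.45 with permutation p = 0.178). Without P304 and P323, r was 0.45 for PPARGC1A (permutation p = 0.247) and 0.19 for CPT1A (permutation p = 0.602). PDK4 with PCK1 gave r = 0.33 and rho = 0.29 (permutation p = 0.106 and 0.316), and r = 0.46 without P304 and P323. PDK2 had negative coefficients with all of them, with r = -0.40 for PCK1, -0.47 for CPT1A and -0.45 for PPARGC1A (adjusted permutation p from 0.197 to 0.217). Their rho was -0.40, -0.54 and -0.52 (permutation p from 0.0928 to 0.167), and without P303 and P324 r was -0.43, -0.29 and -0.59.

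The patterns most like each kinase across the 12 pigs, after class means were removed, were ranked by r over the probe sets of 13754 other gene symbols. For PDK4 the nearest was AHCYL1, a regulator of inositol trisphosphate receptors, at r = 0.97, followed by HECW2 (0.93), AMELX (0.93), SLC30A7 (0.92) and HDAC4 (0.92). Without P304 and P323 these were 0.87, 0.82, 0.77, 0.68 and 0.72. For PDK2 the nearest were AAK1, a kinase of clathrin adaptors (0.92), MDM1 (0.91), DNAJC28 (0.90), CORIN (0.90) and ACOT13, a mitochondrial thioesterase (0.90). As the highest of so many coefficients, these are a ranking only.

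In the other kinases the classes overlapped in every probe set, as in all but 0.339% of the probe sets of the array. PDK1, a kinase isoform induced by hypoxia, has 3 probe sets. The brightest, SNOWBALL_017947_s, ranged from 6.87 to 7.10 (median 7.06) in low RFI and from 6.56 to 7.19 (median 6.78) in high RFI pigs, so the low RFI pigs lay within the range of the high RFI pigs. Its difference was 0.20 (SE 0.12). SNOWBALL_017931 had 6.64 ± 0.22 and 6.28 ± 0.41 (SD, n = 6 per class), a difference of 0.36 (SE 0.17), larger in size than in 94.3% of all probe sets, with all 6 low RFI pigs above the mean of the other class, and SNOWBALL_017836 differed by 0.10. PDK3, an isoform X-linked in human, has 5 probe sets with differences from 0.03 to 0.19. The brightest, SNOWBALL_023574_s, was at 5.76 to 6.05 in low RFI and 5.75 to 5.92 in high RFI pigs, and its 3 highest values were those of the low RFI males P307, P308 and P309 (6.05, 6.02 and 6.02).

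The phosphatases, which switch the complex back on, differed by less than the spread among low RFI pigs. PDP1, the calcium-stimulated isoform, was measured by SNOWBALL_005792 at 4.47, 5.21 and 5.86 (lowest, median, highest) in low RFI and 4.86, 4.93 and 5.20 in high RFI pigs. Its difference was 0.25 (SE 0.18), and both the lowest (P307) and the highest (P323) value belonged to low RFI. Without P323 the difference of PDP1 was 0.13, and without P307 it was 0.41. PDP2, the isoform not stimulated by calcium, had 5.84, 6.24 and 7.29 in low RFI and 5.81, 6.31 and 6.55 in high RFI pigs, with a difference of 0.13 (SE 0.21) in the means and P323 again highest, and without P323 the sign turned to -0.06. The second probe set of PDP1, SNOWBALL_028153, was dim at 1.06 to 1.76 in all pigs.

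Of the subunits of the complex, PDHA1 and DLAT were close between the classes. PDHA1, the subunit that the kinases phosphorylate, was bright through SNOWBALL_026796_s, with 9.22 ± 0.25 in low RFI and 9.02 ± 0.14 in high RFI pigs (SD, n = 6 per class), a difference of 0.20 (SE 0.12). Its values spanned 8.86 to 9.59 and 8.85 to 9.26, with P323 the highest low RFI and P317 the highest high RFI pig. The other probe sets of PDHA1 differed by 0.18 and 0.09. DLAT ranged from 4.49 to 5.37 in low RFI and from 4.16 to 5.24 in high RFI pigs and differed by 0.12 (SE 0.19). PDHB was listed at 1.24 to 1.77 in all 12 pigs, with its mean at percentile 8.08 of the array, and differed by 0.02 (SE 0.09). A signal this dim does not show whether PDHB differed.

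**Figure D3:**
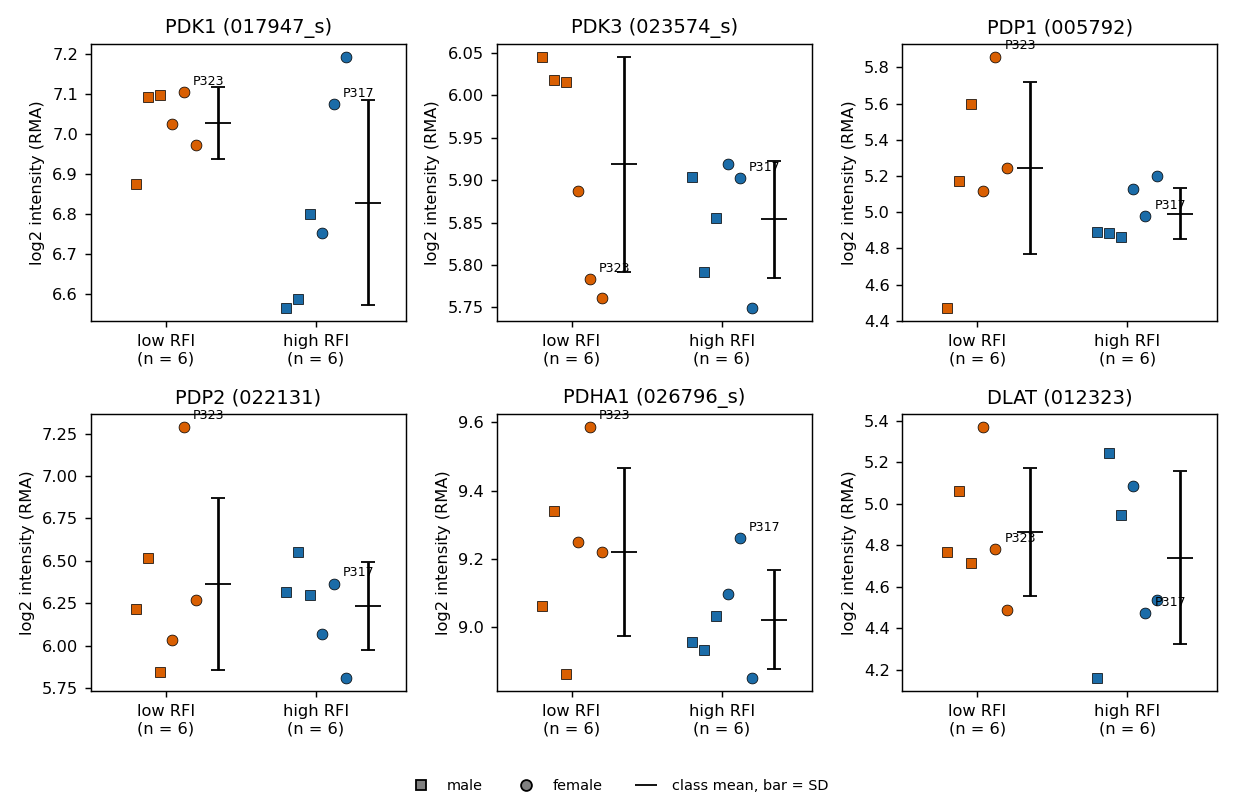
Log2 intensity (RMA) in each pig for the brightest probe set of PDK1, PDK3, PDP1, PDP2, PDHA1 and DLAT, with the class mean and SD (n = 6 per class) beside the points. The classes overlap in all 6 genes, and P323 is the highest low RFI pig in PDP1, PDP2 and PDHA1.

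Over the 19 member probe sets, which share genes and arrays, 18 had a higher mean in low RFI pigs (94.7%, against 46.7% of all probe sets), with PDK2 the exception, whereas relative to the reference genes RPL10 and RPL32 only 2 of the 19 were higher, PDK4 through SNOWBALL_001569 and PDK1 through SNOWBALL_017931. RPL10 was itself higher by 0.65 in low RFI pigs and RPL32 by 0.04, and their mean of 0.35 is taken off every probe set alike. Since 94.3% of all probe sets differed by less than 0.36 in size, most of the array is lower on this scale too. The count of 2 is therefore not particular to these genes. PDK2 and PDK4 kept their signs on this scale, at -0.97 and 0.68. The median member difference was 0.13 and that of all probe sets -0.01.

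**Figure D4:**
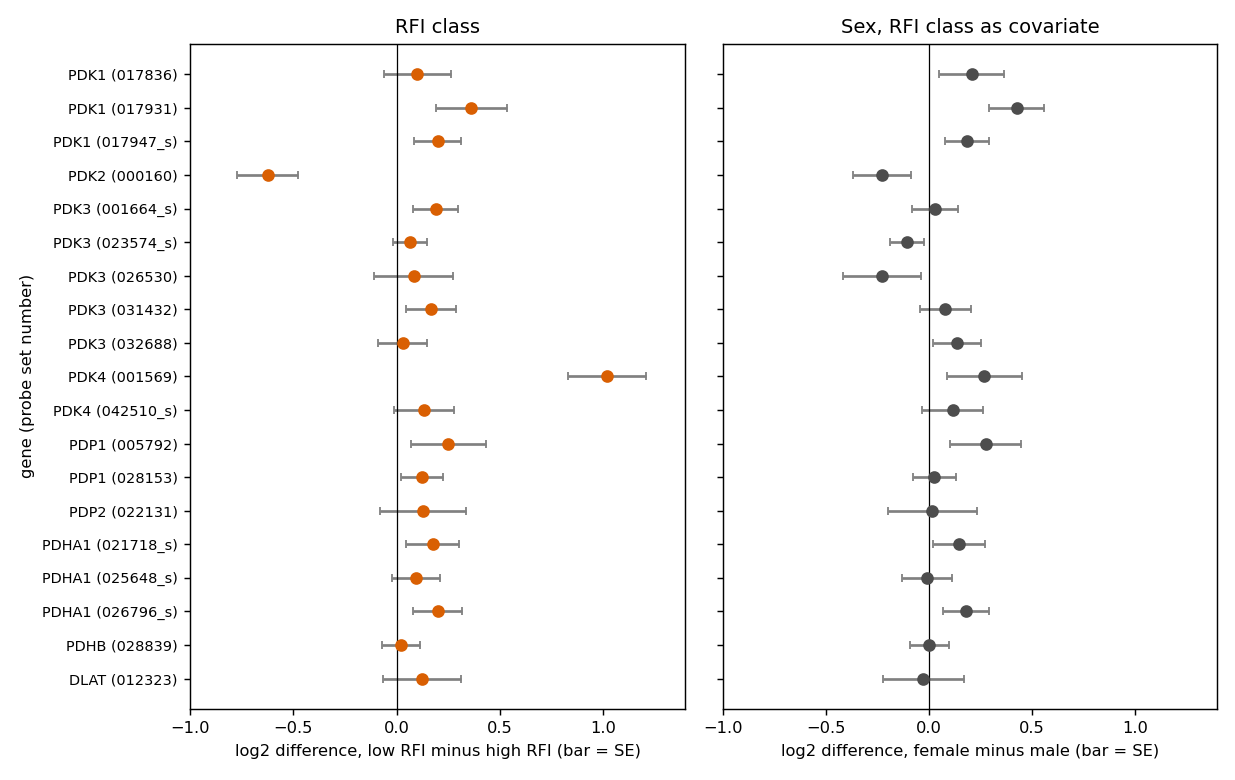
Log2 difference with its SE (limma, 12 pigs) for each of the 19 probe sets, between RFI classes on the left and between sexes on the right. PDK2 at -0.62 and PDK4 at 1.02 lie apart from the other probe sets on the left, and all differences on the right lie between -0.23 and 0.43.

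Sex was not used to choose the genes, so it could be tested across all probe sets, with RFI class as a covariate. In limma, 0 of the 19 member probe sets differed between males and females at q under 0.30, against 0.0397% of all probe sets. At an unadjusted p under 0.05 it was 1 of 19, against 6.11% of all. This was SNOWBALL_017931 of PDK1, with a mean of 6.67 in females and 6.25 in males, a difference of 0.43 (SE 0.13, q = 0.659 from limma). PDK2 differed by -0.23 (females minus males, 95% interval -0.53 to 0.07) and PDK4 by 0.27 (-0.12 to 0.66). PDHA1 differed by 0.18 (-0.06 to 0.42) through its brightest probe set.

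The difference between the RFI classes had the same sign in both sexes for PDK2, at -0.63 in males and -0.62 in females, and for PDK4, at 0.92 and 1.12. In males both genes separated the classes without overlap, as did 13.6% of all probe sets with 3 pigs against 3. PDK2 was 7.98, 8.20 and 7.83 in low RFI males (P307, P308 and P309) and 8.45, 8.70 and 8.73 in high RFI males (P301, P302 and P303). In females PDK2 overlapped, with P310 of low RFI at 8.23 and P318 of high RFI at 8.17. The interaction of sex and class was 0.00 for PDK2 (95% interval -0.63 to 0.63) and 0.20 for PDK4 (-0.61 to 1.02), intervals that span both signs. In limma, the interaction was called for 0 of the 19 probe sets (0 at an unadjusted p under 0.05), against 0% of all probe sets at q under 0.30 and 4.44% at an unadjusted p under 0.05.

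Around the complex, 78 genes of pyruvate metabolism, the citric acid cycle, related complexes and the control of PDK genes were listed, and 62 were on the array. The lists were chosen with earlier results of these data known. Their class differences, counts and q-values are therefore a description and no test of the lists. With the brightest probe set of each, limma called 0 of the 62 between the classes at q under 0.30, against 0.0436% of all 13755 genes. At an unadjusted p under 0.05, 7 were higher and 1 lower in low RFI pigs, where 4.68% and 4.45% of all genes were. In the filtered fit 2 of the 40 genes kept were called, SIRT1 and TXNIP, against 3.33% of all genes kept. Both are also among the transcripts that the paper reports as altered on these arrays.

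Of 5 other subunits and cofactor genes, 0 were at an unadjusted p under 0.05, with DLD, the E3 enzyme, at 6.77 ± 0.30 and 6.51 ± 0.34 (SD, n = 6 per class) and LIPT1, a lipoyl transferase, at 2.77 ± 0.19 and 2.89 ± 0.29. Of 15 genes of the citric acid cycle it was also 0, and their median difference was -0.05. Citrate synthase (CS), which takes up the acetyl-CoA, differed by -0.31 (SE 0.16), and SUCLG2, a subunit of succinyl-CoA ligase, by 0.26 (SE 0.15). Of 7 genes of the sister complexes that oxidize 2-oxoglutarate and branched-chain keto acids, 0 were past that p, and BCKDK, the kinase that stands to the branched-chain complex as the PDKs do to this one, differed by -0.22 (SE 0.13) and BCKDHB by 0.16 (SE 0.12). Of 4 other mitochondrial kinases and phosphatases, 0 were past it, with PPM1K, the phosphatase of the branched-chain complex, at 0.10 (SE 0.12).

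Of 9 genes of pyruvate metabolism, 1 was past an unadjusted p under 0.05, PCK1, with 11.15 ± 0.55 in low RFI and 9.16 ± 2.03 in high RFI pigs (SD, n = 6 per class) and a difference of 1.99 (SE 0.73, q = 0.536 from limma). All 5 probe sets of PCK1 were higher in low RFI pigs, by 0.055 to 1.99. ME2, a malic enzyme, differed by 0.23 (SE 0.12). Of 15 transcription regulators of PDK genes, 3 were higher and 1 lower at that p. PPARGC1A had 6.26 ± 0.41 and 5.37 ± 0.52, a difference of 0.89 (SE 0.24, q = 0.443 from limma). All 4 of its probe sets had the same sign, with differences from 0.13 to 0.89. The deacetylase SIRT1 differed by 0.50 (SE 0.17, q = 0.529 from limma). Of 11 fasting-responsive liver genes, 5 were higher and 0 lower at that p, where 4.68% and 4.45% of all genes were. Their median difference was 0.35, against -0.02 over all genes. The SD filter kept 3 of the 11, and of the 5 higher genes it kept only TXNIP. TXNIP, an inhibitor of glucose uptake, had 9.91 ± 0.41 and 9.10 ± 0.30, a difference of 0.81 (SE 0.18, q = 0.438 from limma), while CPT1A differed by -0.11 (SE 0.40). PCK1 and PPARGC1A stand in more than 1 of these lists, as do BCKDK and PPM1K. Between the sexes, 3 of the fasting-responsive genes were at an unadjusted p under 0.05, against 7.08% of all genes, and 0 were called.

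**Figure D5:**
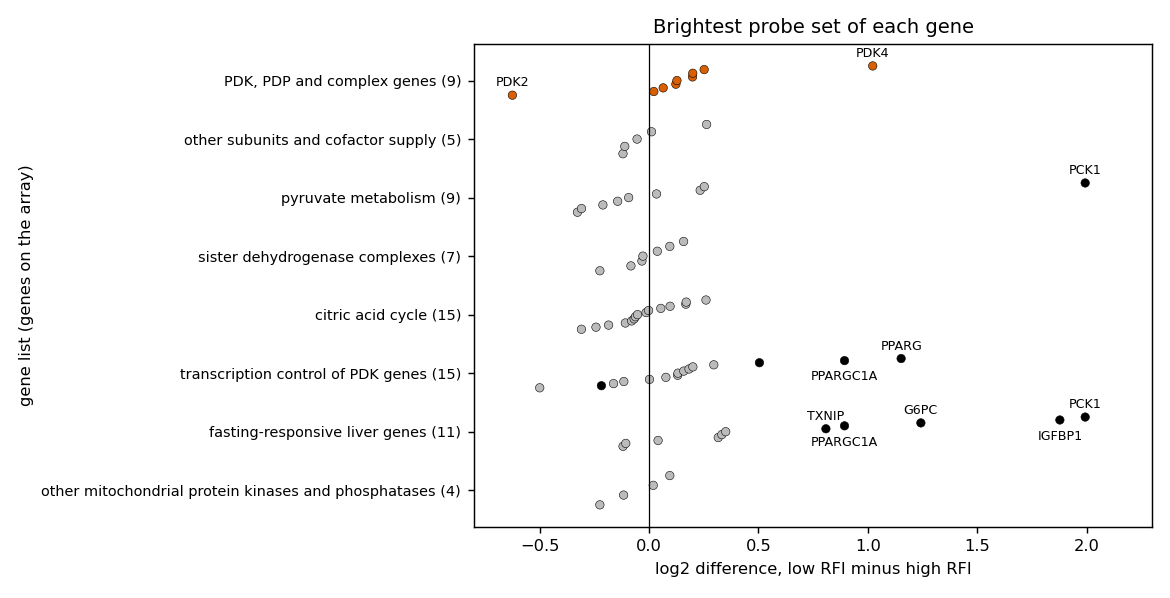
Log2 difference between RFI classes (low minus high) of the brightest probe set of each gene, by gene list, with the 9 genes of the complex and its regulators in orange, list genes at an unadjusted p under 0.05 in limma in black and the others in grey. The largest differences lie in the fasting-responsive list, up to 1.99 for PCK1, while the citric acid cycle spans -0.31 to 0.26.

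Markers of other liver cells were also compared. The mean of 3 Kupffer cell markers was 6.91 to 7.51 in low RFI and 6.65 to 7.14 in high RFI pigs, with CD163 at an unadjusted p under 0.05 (difference 0.68, q = 0.540 from limma). The other probe set of CD163 differed by -0.05, MARCO by 0.003 and CD14 by -0.04. Of 4 lymphocyte markers, PTPRC was at an unadjusted p under 0.05 (0.41, q = 0.598 from limma), with the mean of the list at 5.04 to 5.81 and 5.33 to 5.71. Its other members CD3E, CD2 and CD79A differed by -0.01, -0.03 and -0.12. None of the 3 cholangiocyte, 5 endothelial and 4 stellate cell markers on the array was past that p. The part of these cells in the differences of PDK2 and PDK4 was not tested.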

How the data were processed

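Array images were processed by the authors in GCOS 1.1.1, RMA was run in R 3.2.3, and the deposited values are log2 intensities, 1 per probe set and pig. RMA equalizes the distribution of all arrays, so a shift common to most genes cannot be seen. The labels and the paper name different RNA extraction and labelling kits. Symbols came from the annotation of the platform, where 26426 probe sets carry exactly 1.

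Values were compared with limma 3.58.1 in R 4.3.3, with RFI class as the only factor, or with sex and the interaction, over all 47845 probe sets. Storey's q-value under 0.30 was the threshold. The SD filter of the methods, which kept 35844 probe sets, was used as an alternative because it selects on the SD that the test divides by. Correlations were tested by 1e+05 permutations within classes. The fit was tested on simulated data. Named were every member, the correlation partners, the 5 nearest patterns of PDK2 and PDK4, and the called genes of each list or, with none called, the 2 with the smallest p. The label "w" was read as female. Members and lists were chosen with earlier results of these data known. Other alternatives changed scaling, covariates, weights, the variance model and the pigs used. Each class had 6 arrays, which limits the precision. The p-values set differences against the spread between these pigs, which were treated as independent although chosen as siblings.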

Additional observations from a re-analysis of the deposited data

Results flagged for a closer look

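Of 40 groups of 6 pigs checked for a pig far from the others of its class by Dixon's test at the 95% level, 3 held one, and chance gives about 1 in 20. P323 had a log2 value of 8.77 in PDK4 (SNOWBALL_001569), with the next low RFI pig at 7.88. P324 had 4.78 in PDHA1 (SNOWBALL_025648_s), with the next low RFI pig at 4.99. P318 had a PDK2 minus PDK4 value of 1.02, with the next high RFI pig at 1.65.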

How the results depend on the processing

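Without a filter, 15 probe sets were called between the RFI classes (3490 at an unadjusted p under 0.05 in limma). The count was 952 with the SD filter, 25 with sex as a covariate, 0 at a Benjamini-Hochberg p under 0.05 and 0 with the GC-rich background as a covariate (2284 at an unadjusted p under 0.05), and 1 to 1345 when each pig was left out, with the highest count without P317 and counts of 1 without P303 or P310. Member probe sets called numbered 1, and 0 at a Benjamini-Hochberg p under 0.05 or with that background. Without each pig they were 0 to 2, with PDK4 called in 3 and PDK2 in 1 of 12 fits. With the SD filter as well, chosen after seeing the data, they were 1 to 3. There PDK1 and PDP1 were added to PDK2 without P307, PDK1 without P317 or P324, and PDK4 without P323. Pathway genes called were 0 (8 at an unadjusted p under 0.05), 2 with the filter and 0 to 6 without each pig, with 6 without P317. The difference of PDK2 moved to -0.97 relative to RPL10 and RPL32, and lay between -0.69 and -0.53 without each pig. That of PDK4 moved to 0.58 with the mean of both its probe sets and lay between 0.84 and 1.095 without each pig, and that of PDK2 minus PDK4 between -1.79 and -1.43. The within-class r of PDK2 and PDK4 was -0.68 (permutation p = 0.0287) with the mean of all probe sets, and -0.51 to -0.30 without each pig. The causes were not tested. For the other member probe sets, 16 differences moved by more than the spread between pigs and 294 did not. Counts of members for sex and interaction stayed at 0. No paired analysis was possible because the labels give each pig its own number and name no siblings.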

Other observations

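G6PC, which releases glucose from liver, averaged 12.48 in females and 11.15 in males (log2 difference 1.33, SE 0.30, q = 0.422 from limma with RFI class as a covariate). TAT, which starts tyrosine breakdown, differed by 0.42 (females minus males) and CYP4A24, a fatty acid hydroxylase, by -0.58. These are the fasting-responsive genes at an unadjusted p under 0.05 between the sexes, named after their values were seen.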
